A study of Arabidopsis thaliana with 24 samples.

Results

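The nuclear genes for the photosystems and their antennae were followed in leaves of *Arabidopsis thaliana*. With earlier results of these data known, they were chosen by a list of 41 locus IDs: 6 LHCA genes (the antenna of photosystem I), 14 LHCB genes (the antenna of photosystem II), 12 PSA genes (subunits of photosystem I) and 9 PSB genes (subunits of photosystem II). They are 41 of the 32833 genes with a value. All plants were wild type Col-0, 4 to 5 weeks old, grown at 50 µmol m−2 s−1. For 15 min, agarose (0.3%) holding either water or 50 mM diphenyleneiodonium (DPI) sat between a local leaf and a systemic leaf. DPI blocks flavin enzymes, among them the NADPH oxidases of the reactive oxygen wave, and is not specific for one of them. The local leaf was then lit at 2000 µmol m−2 s−1 for 8 min or left unstressed at 50 µmol m−2 s−1 as the control. The systemic leaf was not given high light itself, and RNA of both leaves was sequenced. Below, light and lit mean this high light, and the controls stayed at growth light. These 2 drops, 2 light treatments and 2 leaves made 8 groups of 3 libraries, each from the pooled leaves of many plants. P-values measure only the spread between these libraries.

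The 24 libraries held 13492454 to 26913744 reads, with a median of 17764651.5. Levels are normalized counts, meaning reads scaled by a size factor for each library. A count of 3 reads, the floor used here, corresponds to between 2.00 and 4.27 of these units. The tissue label was checked against marker transcripts. The 4 mesophyll markers summed to 485318 to 612495 normalized counts per library, the 3 root markers to 16.1 to 110.0, the 3 seed markers to 0 to 23.3 and the 2 flower markers to 1.74 to 23.0, and the root hair genes RHD6 and COBL9 were at 0 in all 24 libraries. Differences were tested with limma on log2(normalized count + 1) in 18314 genes, and a call means an adjusted p-value under 0.05.

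The photosystems are the pigment and protein complexes of the thylakoid membrane that turn light into electron flow, and their subunits are coded partly in the plastid and partly in the nucleus. The chlorophyll-binding antenna proteins are all nuclear-coded and are imported into the chloroplast. LHCB1, LHCB2 and LHCB3 form the trimeric antenna LHCII that can move between the photosystems, whereas LHCB4, LHCB5 and LHCB6 are monomeric proteins linking it to photosystem II. Lowered expression of these genes is a known part of the response of leaves to strong light over longer times.

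LHCB1.3 and LHCB1.4 were among the abundant members that fell, and the LHCB1 genes are closely alike in sequence. LHCB1.1 (AT1G29920), LHCB1.2 (AT1G29910) and LHCB1.3 (AT1G29930) are neighbours on chromosome 1, and their coding sequences of 804 bases were 95.7% to 96.4% identical. A stretch of 75 bases of the coding sequence (bases 190 to 264 from the start codon, RefSeq TAIR10.1), the one in which they differed most, shows what tells their reads apart. Capitals mark the 9 positions at which the 3 genes are not all alike.
LHCB1.1: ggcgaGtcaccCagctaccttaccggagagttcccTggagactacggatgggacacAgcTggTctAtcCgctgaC
LHCB1.2: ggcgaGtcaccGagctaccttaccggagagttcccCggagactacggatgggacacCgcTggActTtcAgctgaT
LHCB1.3: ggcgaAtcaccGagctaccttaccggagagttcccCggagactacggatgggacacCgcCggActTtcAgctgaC
Only 10.4% of the 75-base windows of the LHCB1.1 transcript, 3.66% of those of LHCB1.2 and 7.53% of those of LHCB1.3 occurred unchanged in the transcript of another gene. The highest such shares among the members were those of LHCB2.2 (19.1%) and LHCB2.1 (15.3%), and 33 of the 41 members shared none. How reads with several locations were counted is not given in the sources used here, so the levels of LHCB1 and LHCB2 members are uncertain to that extent.

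The 250 bases before the annotated starts of the 4 detected LHCB1 genes are shown because LHCB1.3 was the LHCB1 gene called lower with DPI and LHCB1.4 the one called lower in the systemic leaf after light. They were read from RefSeq TAIR10.1 at chr1:10475970-10476219 on the minus strand, chr1:10473503-10473752 on the minus strand, chr1:10477635-10477884 on the plus strand and chr2:14524357-14524606 on the plus strand, and capitals mark matches to 1 of 6 motifs.
LHCB1.1: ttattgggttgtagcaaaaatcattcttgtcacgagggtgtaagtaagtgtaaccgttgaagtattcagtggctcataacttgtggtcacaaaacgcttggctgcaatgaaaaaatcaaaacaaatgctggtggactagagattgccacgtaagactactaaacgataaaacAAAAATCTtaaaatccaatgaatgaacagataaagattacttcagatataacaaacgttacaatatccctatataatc
LHCB1.2: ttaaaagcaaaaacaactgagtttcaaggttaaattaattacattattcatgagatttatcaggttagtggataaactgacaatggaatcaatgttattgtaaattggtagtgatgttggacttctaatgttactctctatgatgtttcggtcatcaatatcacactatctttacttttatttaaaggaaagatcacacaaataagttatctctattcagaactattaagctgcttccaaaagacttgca
LHCB1.3: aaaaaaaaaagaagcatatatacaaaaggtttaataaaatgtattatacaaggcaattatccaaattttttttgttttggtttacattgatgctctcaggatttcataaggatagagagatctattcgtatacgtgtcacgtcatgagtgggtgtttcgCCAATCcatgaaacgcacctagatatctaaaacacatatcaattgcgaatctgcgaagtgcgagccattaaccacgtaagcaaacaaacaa
LHCB1.4: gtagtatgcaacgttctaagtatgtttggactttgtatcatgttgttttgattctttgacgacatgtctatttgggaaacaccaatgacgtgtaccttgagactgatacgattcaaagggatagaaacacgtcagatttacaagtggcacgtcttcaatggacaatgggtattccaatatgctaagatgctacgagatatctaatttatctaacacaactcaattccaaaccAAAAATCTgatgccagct
The motifs, searched on both strands, were the G-box CACGTG, the I-box GATAAG, the CCAAT-type motif CCAATC, the CCA1 sites AAAAATCT or AACAATCT, the evening element AAAATATCT and the TATA box TATAAA. LHCB1.1 and LHCB1.4 held a CCA1 site, at −78 and −18 from the start, LHCB1.3 held CCAATC at −91, and LHCB1.2 held none of these letters. Over the 41 promoters the G-box was present in 8 (19.5%, against 6.49% of 27443 promoters of the same length), CCAATC in 11 (26.8% against 10.2%), the I-box in 9 (22.0% against 12.3%), a CCA1 site in 6 (14.6% against 8.39%), the evening element in 1 (2.44% against 2.36%) and TATAAA in 19 (46.3% against 47.4%). A match is a description of the sequence and was not tied to any change in level.

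Together the members took 14.3% to 17.5% of all normalized counts of a library. LHCB1.3 was the most abundant transcript of the whole table in each of the 24 libraries. Per kilobase of transcript its mean was 323171 normalized counts (range over libraries 272141 to 426489), and it did not overlap with the next member, LHCA4, at 150604 (136567 to 166246). Among the 29 members from LHCA4 down to PSAH2 at 27367, neighbours in the order overlapped in their ranges over the 24 libraries. PSAH2 did not overlap with the next member, PSBQ1, at 22883. These ranges pool all 8 groups, and the order of neighbours within each library was not compared. PSAH1 (6965), LHCA6 (3082), LHCA5 (2878) and LHCB4.3 (20.6) were the lowest of the 40 detected members. LHCA5 and LHCA6 are minor subunits of the photosystem I antenna, and LHCB4.3 is a rare isoform of the linker protein CP29. The median coefficient of variation between replicates was 1.5% to 5.69% in 39 members and 23.8% in LHCB4.3.

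**Figure D1:**
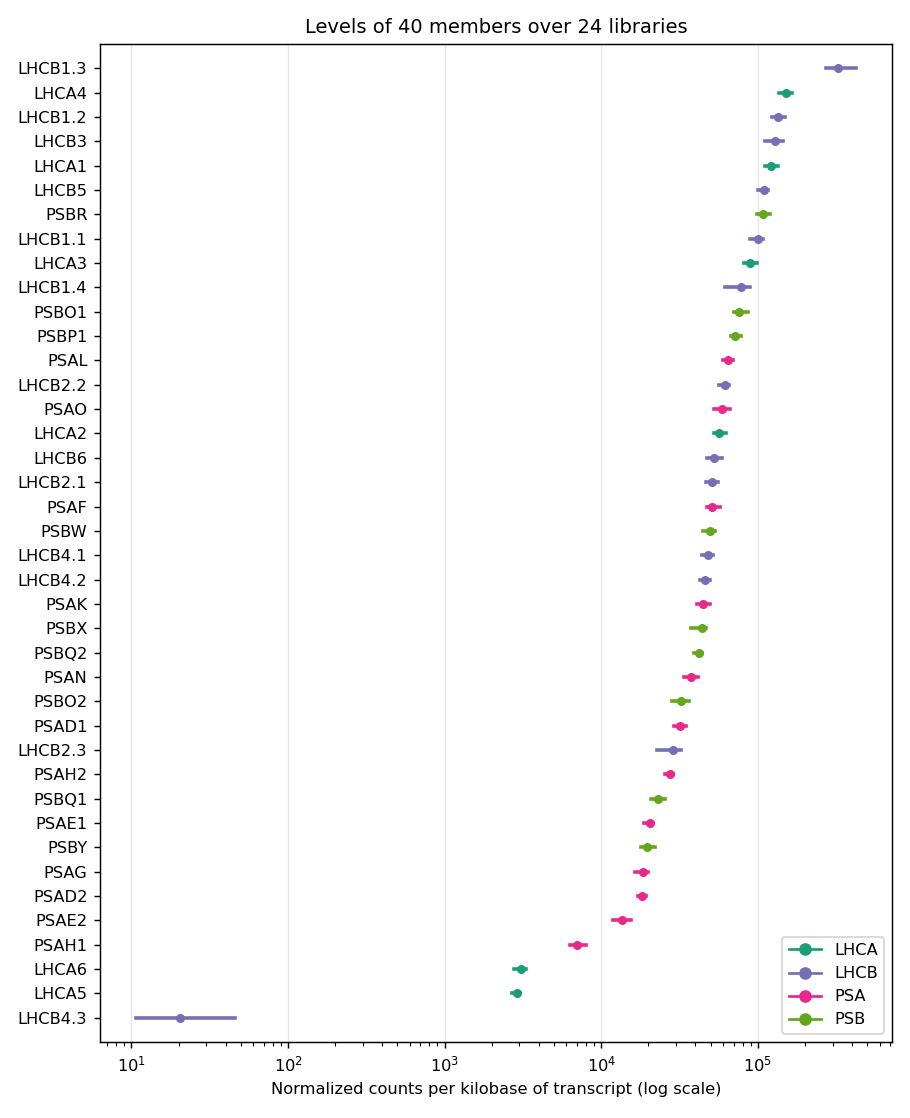
Level of each detected member, in normalized counts per kilobase of transcript on a log axis, with the mean (point) and the range (bar) over 24 libraries, coloured by family. LHCB1.3 lies apart at the top and LHCB4.3 at 20.6 lies apart at the bottom, while LHCB1.5 was listed at 0 and is not drawn.

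LHCB1.5 (AT2G34420) was listed at 0 in all 24 libraries, whereas its neighbour LHCB1.4 (AT2G34430) averaged 103103 normalized counts. In RefSeq TAIR10.1 its exons are covered in full (100%) by genes of the other strand, among them the long non-coding RNA AT2G08665, which was also at 0 throughout. Of the 332 protein-coding genes of the table covered in this way, 329 (99.1%) were at 0 in all libraries, against 3746 of 20867 (17.95%) without such overlap. The value of LHCB1.5 is therefore given as a listed 0 and not as a level. Opposite-strand genes also covered 61.4% of the exon length of PSAG, 53.3% of PSAH1, 40.6% of LHCB2.3 and 34.1% of PSAE1, so that their levels against other members are uncertain, and the part of the overlap in their values was not tested.

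Under the water drop, 8 min of high light lowered 11 members in the lit leaf and raised 0. The filter on low values left 40 of the 41 members, all but LHCB1.5. Most were in the antenna of photosystem II, with 7 of 13 LHCB genes, beside 1 of 6 LHCA, 1 of 12 PSA and 2 of 9 PSB genes. The 11 calls are 27.5% of the members, where 14.4% of all tested genes were lower (2643) and 17.9% were higher (3278). The median change of the members was −0.076 on the log2 scale, and 37 of 40 values lay below 0. Medians over all tested genes lay between −0.0096 and 0.0045 in the 10 comparisons. All members together took 16.6% ± 0.635 of a library in the control and 14.4% ± 0.0664 in high light (SD, n = 3), and these groups did not overlap. The number of falls was 28 under quantile normalization, where 4585 of the 18314 tested genes were lower and 2469 higher. Of the 11 calls, 7 kept their direction under that scaling, 1 (LHCA4) turned and the others did not change. The number was 7 when only these groups were fitted or water control local replicate 1 was left out, and 21 without water control local replicate 2.

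LHCB1.3, coding the main LHCII protein, stood at 497716, 425784 and 468129 normalized counts in the 3 water controls of the local leaf and at 368526, 365912 and 376191 in high light. The groups did not overlap, and the level fell by 20%, with log2 change −0.32 (± 0.05 SE, adjusted p 1.59e-06 in limma). Quantile normalization gives a transcript that ranks first in every library the same value in each, and therefore no change for LHCB1.3 by construction. LHCB1.4, a further LHCII gene, went from 106642, 95051 and 101888 to 81174, 82538 and 83758. The groups were again apart, and the level fell by 18.4%, a log2 change of −0.29 (± 0.043 SE, adjusted p 6.31e-07 in limma). LHCB2.3, of the LHCB2 proteins that are phosphorylated when LHCII moves to photosystem I, went from 44122.5, 39547 and 42464 to 33196, 33566 and 36025, with no overlap and a log2 change of −0.29 (± 0.04 SE, adjusted p 9.90e-08 in limma). Its paralogues had log2 changes of −0.12 (95% interval −0.22 to −0.016) for LHCB2.1 and −0.09 (−0.17 to −0.013) for LHCB2.2, neither of them called.

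LHCB4.3 had 60.5, 45.1 and 34.2 normalized counts in the controls and 23.0, 23.9 and 19.9 in high light. This is the largest fall of any member, −1.0 (± 0.27 SE, adjusted p 0.00310 in limma) on the log2 scale, but it rests on low levels in which the control libraries spread widely. Its abundant paralogues LHCB4.1 and LHCB4.2 were not called, with intervals of −0.16 to 0.012 and −0.16 to −0.0073. The other LHCB falls were those of LHCB3 (−0.17), LHCB1.1 (−0.15) and LHCB5 (−0.11). LHCB1.1 ranked 9 in every library, so quantile normalization gives it no change by construction, like LHCB1.3. In the photosystem I antenna only LHCA4 was lower (−0.15), and this direction turned under quantile normalization, without a call. LHCA4 ranked 3 or 4 in every library, so its values under that scaling are nearly fixed by rank.

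Among core subunits, PSBX, a small membrane subunit of photosystem II, went from 33466.5, 29696.5 and 33173 to 27854, 27115 and 26823 normalized counts. Its groups did not overlap and the log2 change was −0.23 (± 0.039 SE, adjusted p 5.58e-06 in limma). PSBY, another small subunit, changed by −0.16 (± 0.044 SE, adjusted p 0.00297 in limma), and PSAF, the photosystem I subunit that docks plastocyanin, by −0.17 (± 0.04 SE, adjusted p 0.000735 in limma). None of the remaining 11 PSA and 7 PSB genes was called. Among these, the extrinsic proteins of the water-splitting complex had log2 changes of −0.11 (PSBO1), −0.057 (PSBO2), −0.078 (PSBP1), −0.034 (PSBQ1) and −0.0043 (PSBQ2). The groups of PSBO1 did not overlap, with 127052, 112188 and 116563 normalized counts in the controls and 109935, 109832 and 110360 in high light. Those of the other extrinsic proteins overlapped.

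**Figure D2:**
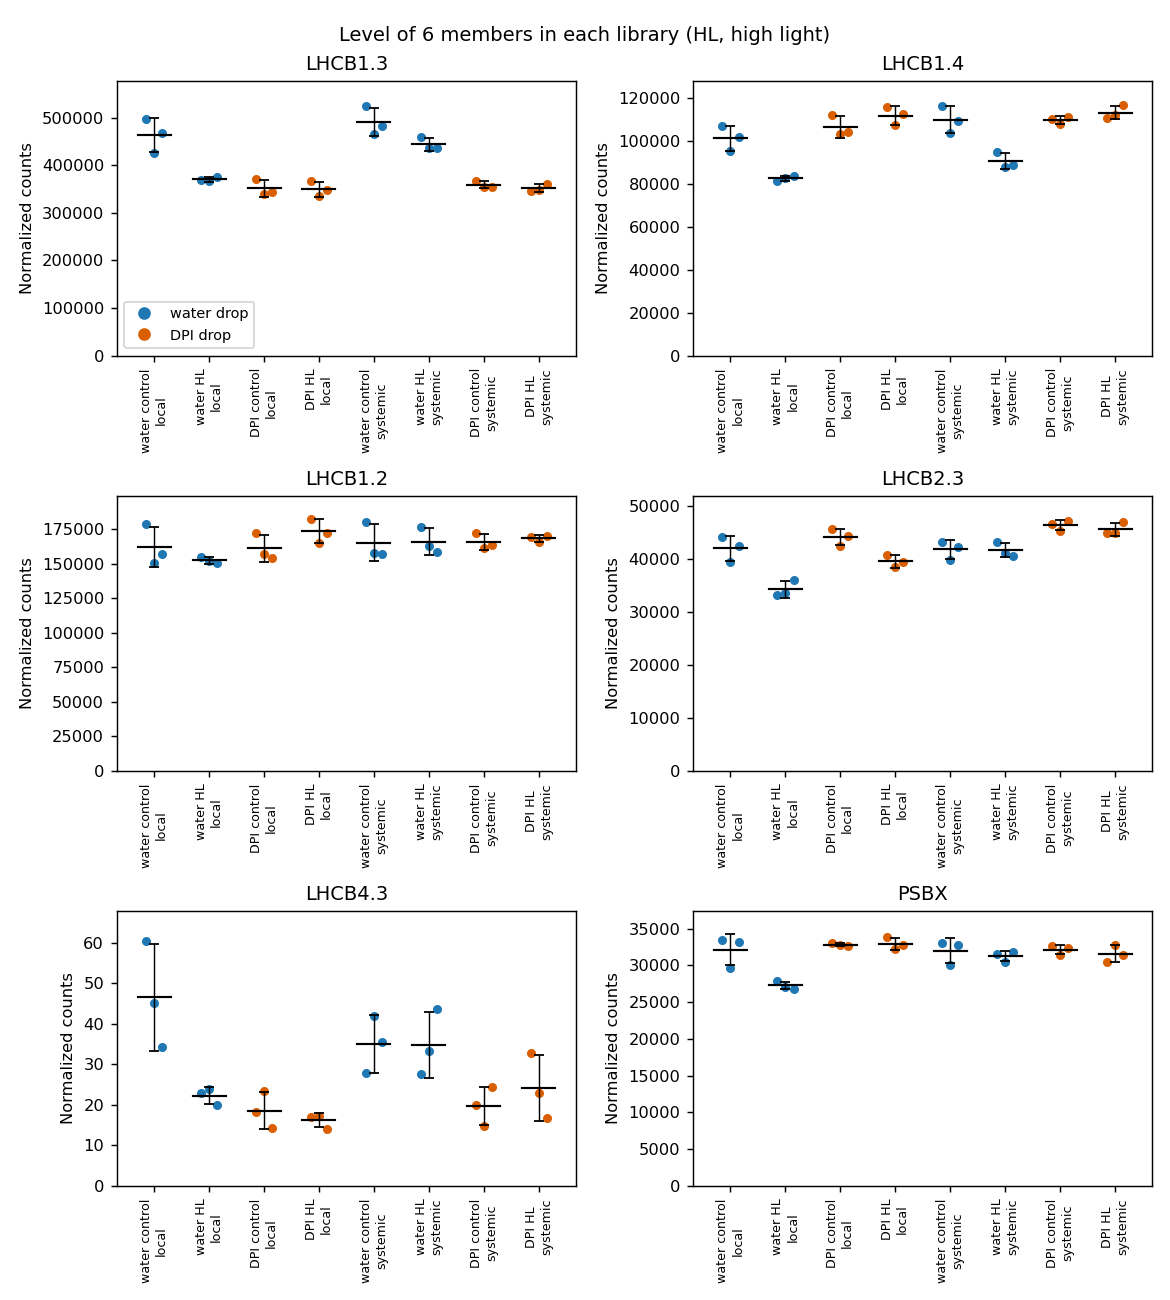
Normalized counts (linear axis from 0) of 6 members in the 8 groups, with a point per library, the group mean (line) and its SD (bar, n = 3). In the local leaf under water, high light lowers LHCB1.3, LHCB1.4, LHCB2.3, LHCB4.3 and PSBX, LHCB1.2 is shown as a paralogue that was not called, and LHCB1.3 stays at 334734 to 371456 in all DPI libraries.

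In the systemic leaf, which was not given high light itself, 1 member responded to high light on the local leaf, LHCB1.4. It stood at 116318, 103669 and 109321 normalized counts in the controls and at 94799.8, 87926 and 88892 after the treatment, with no overlap. The level fell by 17.5%, a log2 change of −0.28 (± 0.043 SE, adjusted p 6.13e-06 in limma). This was 1 of 40 members (2.50%), with 0 raised, beside 3.10% of all tested genes lower and 7.66% higher, so the share of members called is near the background. LHCB1.3 changed by −0.15 (± 0.05 SE, adjusted p 0.0549 in limma) and missed the threshold. LHCB1.1 and LHCB1.2 had 95% intervals of −0.067 to 0.12 and −0.10 to 0.12, which do not reach the change of LHCB1.4. Without LHCB4.3, the log2 changes of the members ran from −0.28 to 0.048 with interval bounds between −0.37 and 0.13. The number was 2, all lower, in edgeR, in DESeq2, without water high light systemic replicate 1 and without water control systemic replicate 2, and quantile normalization called 1 higher and 2 lower.

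The leaf by light comparison tests whether the systemic response differed from the local one under water. It was more positive in the systemic leaf for 3 of 40 members, LHCB2.3 (log2 difference 0.29 ± 0.056 SE, adjusted p 0.000148 in limma), PSBX (0.20 ± 0.055 SE, adjusted p 0.00600) and LHCB1.1 (0.18 ± 0.064 SE, adjusted p 0.0476), and more negative for 0. The LHCB1.1 call lay near the threshold, and fits that left out 1 library gave as few as 2 members. LHCB1.1 ranked 9 in every library, so quantile normalization gives it no change by construction. Over all genes 8.52% were more positive and 10.3% more negative. In the systemic leaf LHCB2.3 stood at 43299.8, 39887.5 and 42287 normalized counts in the controls and at 43152, 41072 and 40689 after the treatment, and PSBX at 33097, 30041 and 32805 and at 31509, 30492 and 31878. Both transcripts overlapped between these groups. The number of members was 5 in edgeR, with the replicate block, without water control systemic replicate 1 or without water control local replicate 2. It was 12 under quantile normalization, where 2345 of the 18314 tested genes were more positive and 1560 more negative. For LHCB1.4 the difference between the leaves was 0.016 (95% interval −0.11 to 0.14) and was not called. Between the systemic and the local leaf of the water controls, 0 of 40 members were called by limma, edgeR or DESeq2, with 1 at an unadjusted p under 0.05 and 1 called with the replicate block, where 1.58% of all genes lay higher in the systemic leaf and 1.19% lay lower. Without LHCB4.3 the interval bounds lay between −0.15 and 0.21.

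With DPI in the drop, the local light response of the members was small and mostly positive on the scale of the deposited values. High light raised 7 of 40 members (17.5%, beside 17.9% of all genes) and lowered 1 (2.50%, beside 15.9% of all genes). Under quantile normalization, however, 0 members were called higher and 12 lower, beside 2532 of the 18314 tested genes higher and 4084 lower. The members called higher were LHCA1, LHCA5 and LHCA6 of the photosystem I antenna, PSAE1, PSAG and PSAL of photosystem I, and PSBQ1. The 5 members LHCA5, LHCA6, PSAE1, PSAG and PSBQ1 turned negative under quantile normalization. The number called, 8 in all, was 14 when only these groups were fitted, 5 without DPI control local replicate 2 or replicate 3 and 4 without DPI high light local replicate 3. The rises were between 7.54% and 12.1%. As a share of the library the members went the other way, from 16.1% ± 0.464 to 15.4% ± 0.380 (SD, n = 3).

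PSAG, a photosystem I subunit that binds antenna, had 12827, 13654 and 13575 normalized counts in the DPI controls and 14094, 15441.5 and 15383 in DPI with high light, a log2 change of 0.16 (± 0.039 SE, adjusted p 0.000810 in limma). PSBQ1, an extrinsic subunit of the water-splitting complex, went from 22134, 20610.5 and 20901 to 23589.5, 22782 and 23235, a change of 0.13 (± 0.038 SE, adjusted p 0.00627 in limma). Of the minor antenna transcripts, LHCA5 went from 2633, 2646 and 2765 to 2871, 2863 and 2959.9 (0.11 ± 0.036 SE, adjusted p 0.0145 in limma) and LHCA6 from 3616, 3433 and 3199.7 to 3645, 3628 and 3847 (0.12 ± 0.04 SE, adjusted p 0.0186 in limma). None of these groups overlapped. The LHCA5 call was lost without DPI control local replicate 1 or 2 or DPI high light local replicate 3 (adjusted p up to 0.0711), and the LHCA6 call without DPI control local replicate 3 or DPI high light local replicate 3 (up to 0.208).

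LHCB2.3 was the 1 member lowered by light under DPI, from 45632, 42544 and 44461 to 40808, 38497 and 39434 normalized counts in the local leaf. The groups did not overlap and the log2 change was −0.16 (± 0.04 SE, adjusted p 0.00150 in limma). It was thus lower after light with either drop, and the difference between its responses, 0.14 (95% interval 0.021 to 0.25), was not called. Under DPI LHCB1.3 changed by −0.0062 (interval −0.11 to 0.10), LHCB1.4 by 0.07 (−0.018 to 0.16) and PSBX by 0.0056 (−0.073 to 0.084). In the systemic leaf under DPI, 0 of 40 members were called by limma, edgeR or DESeq2, none had an unadjusted p under 0.05, and quantile normalization called 2 higher and 1 lower. Over all genes 7.15% were higher and 4.56% lower there. Without LHCB4.3, the interval bounds of the members were −0.18 and 0.18.

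The drop by light comparison tests whether the light response itself differed between the drops, and it shares its libraries with the comparisons above. In the local leaf the response under DPI was more positive than under water for 16 of 40 members (40%), where 8.74% of all genes were more positive, and more negative for 0, where 11.1% of all genes were more negative. The 16 were LHCA2, LHCA3, LHCA4, LHCB1.3, LHCB1.4, LHCB3, LHCB4.1, LHCB5, PSAE1, PSAF, PSAG, PSAL, PSBP1, PSBQ1, PSBX and PSBY, 3 of 6 LHCA, 5 of 13 LHCB, 4 of 12 PSA and 4 of 9 PSB genes. The median difference of the members was 0.15 and 39 of 40 values were above 0. The number was smaller in several fits. It was 6 with no filter on low values or with quantile normalization, under which LHCA4 and LHCB5 turned negative. It was 7 without water control local replicate 1, DPI high light local replicate 1 or DPI control local replicate 3, 8 without water high light local replicate 2 or DPI control local replicate 2, 9 without water high light local replicate 1, water control local replicate 3 or DPI high light local replicate 3, and 25 without water control local replicate 2.

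The largest differences called were those of LHCB1.4, 0.36 (± 0.061 SE, adjusted p 1.47e-05 in limma), and LHCB1.3, 0.32 (± 0.071 SE, adjusted p 0.000820 in limma). For LHCB1.4 the local DPI libraries held 112159, 103279 and 103834 normalized counts in the controls and 115618, 107169 and 112332 in high light. These groups overlapped, and all 6 values lay above the 3 of the lit leaf under water. For LHCB1.3 the values were 371456, 338931 and 343449 in the controls and 365999, 334734 and 348442 in high light. All 6 lie below the 3 local water controls. LHCB4.3 had a larger estimate, 0.83, that was not called (adjusted p 0.128). PSBX differed by 0.24 (± 0.055 SE, adjusted p 0.00112 in limma). Under DPI it had 33017, 32761 and 32607 in the controls and 33829, 32183.5 and 32773.5 in high light. For PSBQ1 the difference was 0.16 and for PSAG 0.16, both at an adjusted p above 0.05 without the filter on low values (0.0573 and 0.0682) and under quantile normalization (0.0512 and 0.441). The call of PSBQ1 was also lost without water control local replicate 1, DPI high light local replicate 1, water high light local replicate 2 or DPI control local replicate 2 or 3 (adjusted p up to 0.122). That of PSAG was lost without DPI control local replicate 1, DPI high light local replicate 2 or 3, water control local replicate 3 or water high light local replicate 3 (up to 0.102).

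In the systemic leaf LHCB1.4 was the 1 member of 40 with a different light response between the drops (2.50%, beside 2.32% of all genes more positive and 4.08% more negative). The difference was 0.32 (± 0.061 SE, adjusted p 0.000346 in limma). Under DPI the transcript had 110034, 107824 and 111120 normalized counts in the controls and 110767, 111798 and 116552 after high light on the local leaf, where the water libraries had fallen. The number was 2 without DPI control systemic replicate 3, and quantile normalization called 3 members more positive and 1 more negative.

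**Figure D3:**
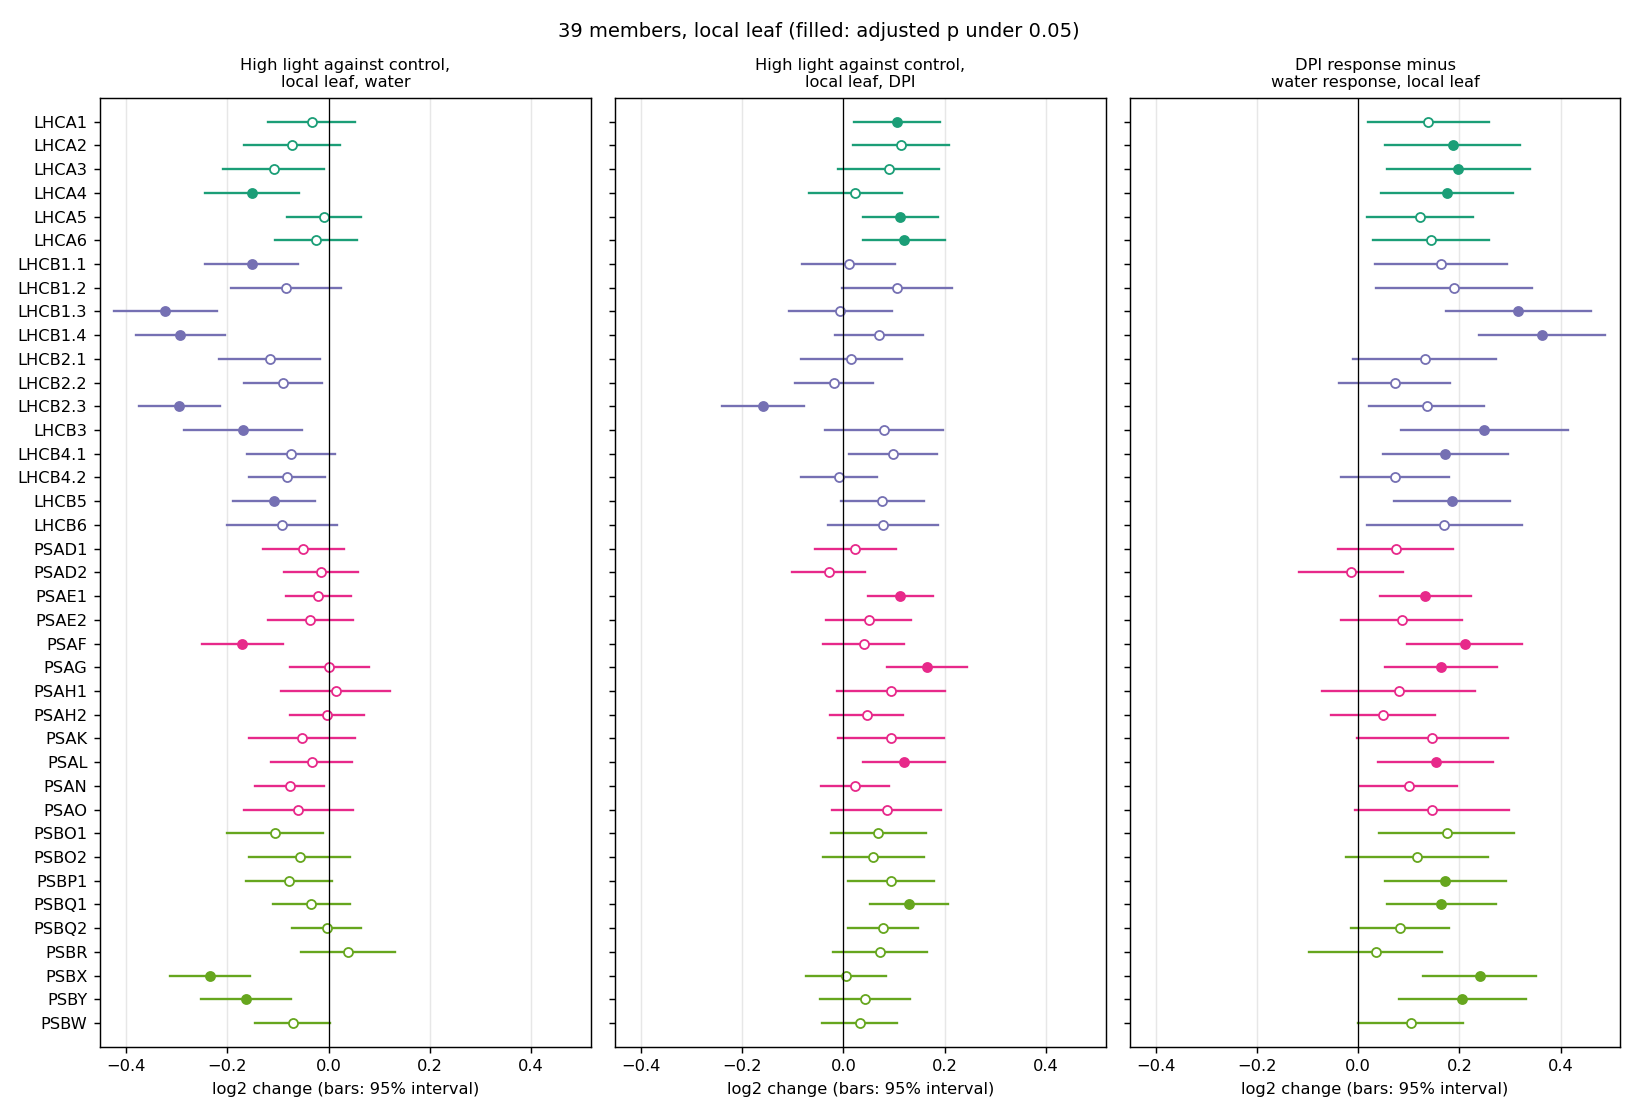
Light response of 39 members in the local leaf under water (left) and DPI (middle), and the difference of the responses (right), as log2 change with its 95% interval. Filled points are called, LHCB4.3 is not drawn, and the LHCB genes hold most of the filled points left of 0 under water while all differences drawn but that of PSAD2 lie right of 0.

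In the controls at growth light, DPI itself lowered 11 of 40 members in the local leaf (27.5%, beside 19.0% of all genes). It raised 1 (2.50%, beside 21.5% of all genes). Systemically it lowered 5 (12.5%, beside 18.8%) and raised 2 (5.00%, beside 20.7%). The share of members lowered is above that of all genes in the local leaf and below it in the systemic leaf, and the share raised is below it in both. Under quantile normalization the local leaf had 9 rises and 6 falls, and the systemic leaf 12 rises and 4 falls. Of the 18314 tested genes, that scaling called 3495 higher and 4286 lower in the local leaf, and 3583 and 3751 in the systemic leaf. LHCB1.3, LHCB4.3, PSAE2, PSAN and PSBO1 were called lower and PSBO2 higher in both leaves.

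LHCB1.3 fell by 24.2% in the local and by 26.8% in the systemic leaf. Its systemic level stood at 524582, 466496 and 482025 normalized counts with water and at 367106, 354828 and 354850 with DPI, with no overlap in either leaf. The log2 changes were −0.40 (± 0.05 SE, adjusted p 1.41e-08 in limma) in the local and −0.45 (± 0.05 SE, adjusted p 9.75e-10) in the systemic leaf. Its neighbours LHCB1.1 and LHCB1.2 had intervals of −0.092 to 0.092 and −0.11 to 0.10 in the local leaf and 0.006 to 0.19 and −0.10 to 0.12 in the systemic leaf, none of which reaches the change of LHCB1.3. The ratio of LHCB1.3 to LHCB1.2 within a library does not depend on the scaling between libraries, and was computed after these values had been seen. Its log2 value was 1.25 to 1.62 in the 12 water libraries and 1.00 to 1.16 in the 12 DPI libraries, without overlap. For LHCB1.1 against LHCB1.2 the ranges were −0.38 to −0.25 and −0.41 to −0.24.

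LHCB4.3 had 18.1, 23.3 and 14.3 normalized counts with DPI in the local leaf, against 60.5, 45.1 and 34.2 with water, a log2 change of −1.27 (± 0.27 SE, adjusted p 0.000156 in limma). Systemically it had 19.9, 14.9 and 24.4 against 27.8, 41.9 and 35.4, a change of −0.81 (± 0.27 SE, adjusted p 0.0145 in limma). The groups were apart in both leaves, but the systemic change was not called without water control systemic replicate 2 (adjusted p 0.0816) or DPI control systemic replicate 2 (adjusted p 0.0999). LHCB2.3 was higher with DPI in the systemic leaf, 46656, 45312 and 47164 against 43299.8, 39887.5 and 42287, a change of 0.15 (± 0.04 SE, adjusted p 0.00232 in limma), whereas its local change of 0.073 was not called.

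Of the photosystem I genes, PSAE2, on the reducing side where ferredoxin docks, changed by −0.21 (± 0.042 SE, adjusted p 8.48e-05 in limma) in the local and −0.24 (± 0.042 SE, adjusted p 8.02e-06) in the systemic leaf, and PSAN, on the plastocyanin side, by −0.20 and −0.12. PSAG (−0.17), PSAF (−0.16) and PSAE1 (−0.12) were lower in the local leaf, as were PSBQ1 (−0.15), PSBY (−0.14) and LHCA5 (−0.11), with PSBQ1 and PSBY turning positive under quantile normalization. PSAG was not called under that scaling (adjusted p 0.112), and LHCA5 was not called without DPI control local replicate 1 or 2 or water control local replicate 3 (up to 0.0761). The local DPI values of PSAG, PSBQ1 and LHCA5 are given above, and the water controls held 14809.6, 15073 and 15035.5 normalized counts of PSAG, 25339.7, 22206 and 23377 of PSBQ1 and 2862, 2877 and 2912 of LHCA5. LHCA6 had 3799.9, 3497 and 3496 and was not called.

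**Figure D4:**
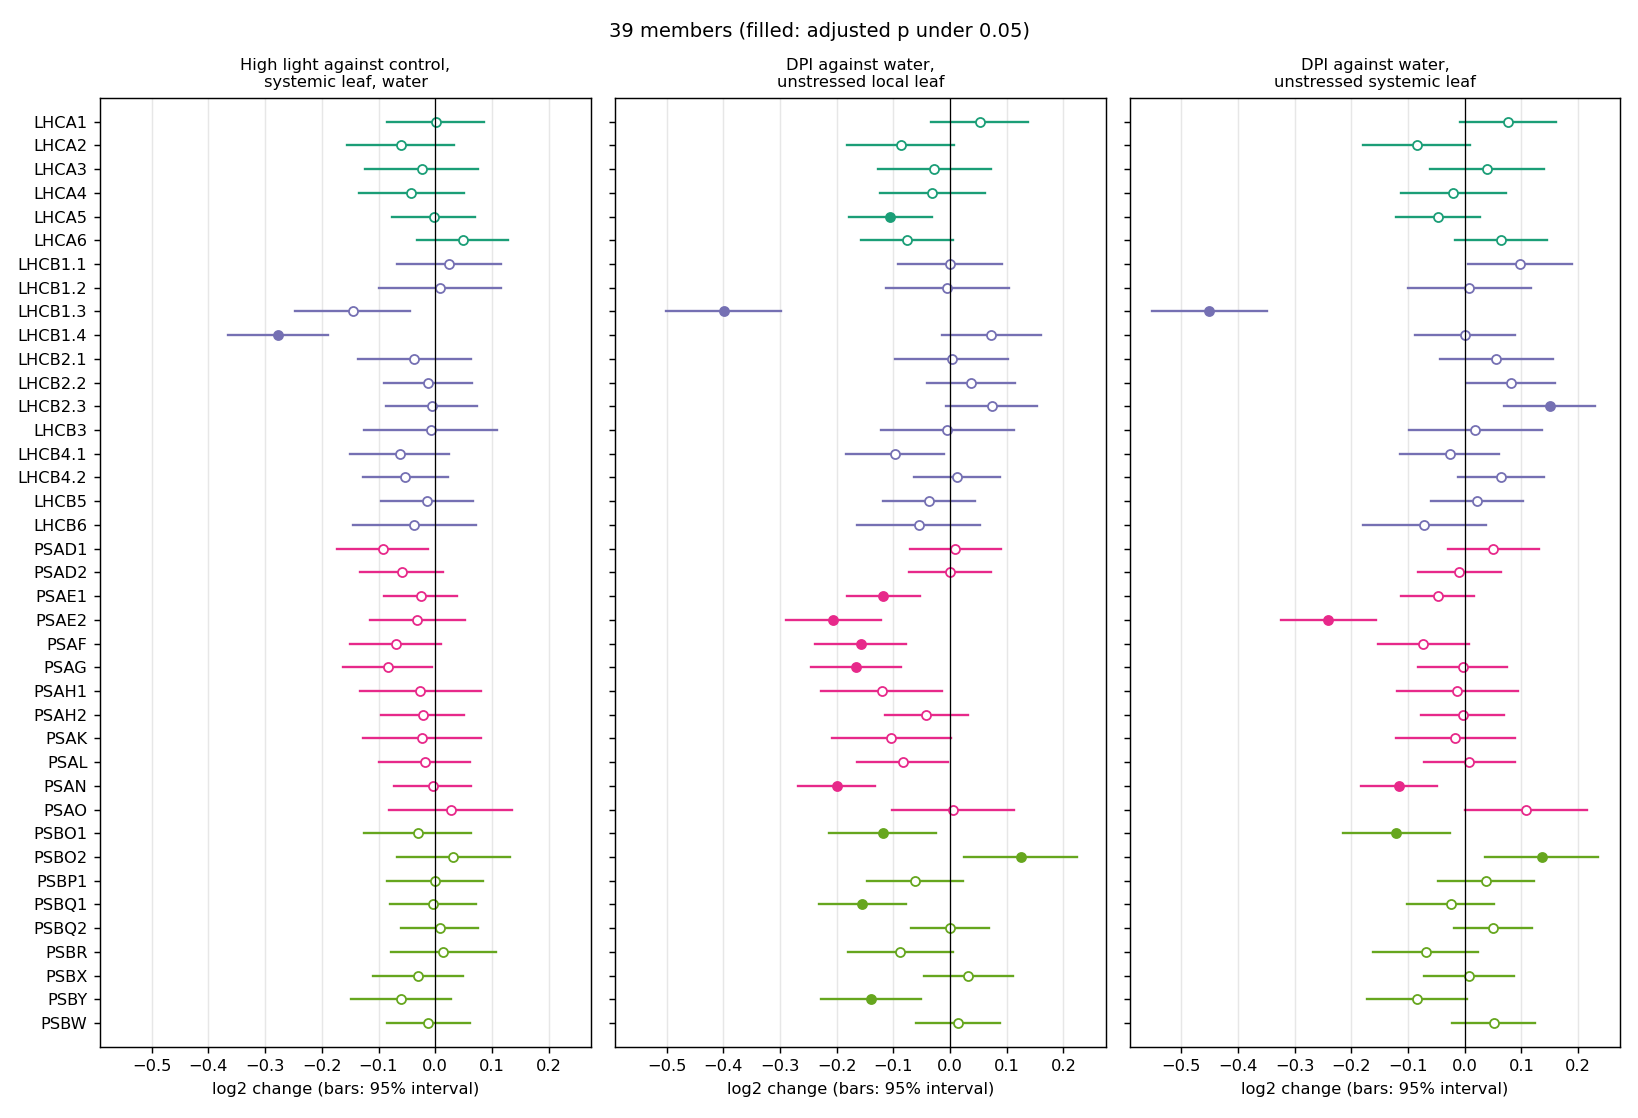
Changes of 39 members as log2 change with its 95% interval: the systemic light response under water (left) and DPI against water in the controls, for the local (middle) and systemic leaf (right). LHCB1.4 is the 1 filled point on the left, LHCB1.3 at −0.40 and −0.45 is the farthest left in the other panels, and LHCB4.3 is not drawn.

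The pair PSBO1 and PSBO2, which code the manganese-stabilising protein of the water-splitting complex, changed in opposite directions under DPI. PSBO2 stood at 43648, 37585 and 40783 normalized counts in the local water controls and at 47439, 42080.1 and 43447 with DPI, and the groups overlapped. The systemic values were 43959.6, 38090.1 and 40021 and 45620.2, 43809.8 and 44475, which also overlapped. The log2 changes were 0.12 (± 0.049 SE, adjusted p 0.0395 in limma) and 0.14 (± 0.049 SE, adjusted p 0.0252), and DESeq2 did not call them (adjusted p 0.11 and 0.0799). The local change was not called without DPI control local replicate 1 or water control local replicate 2 or 3, nor the systemic one without DPI control systemic replicate 1 or 3 or water control systemic replicate 2 or 3. PSBO1 changed by −0.12 and −0.12. Within a library the scaling cancels. The log2 ratio of PSBO1 to PSBO2 was 1.46 to 1.60 in the 12 water libraries and 1.28 to 1.34 in the 12 DPI libraries. These ranges cover both leaves, in the controls and in high light. The 2 ranges did not overlap.

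In the other 5 pairs chosen alike, PSAE, PSAD, PSBQ, PSAH and LHCB4, the water and DPI libraries overlapped. The log2 ratio of PSAE1 to PSAE2 was 0.80 to 1.01 with water and 0.95 to 1.17 with DPI, that of PSAD1 to PSAD2 0.96 to 1.07 and 1.02 to 1.13, that of PSBQ1 to PSBQ2 −1.09 to −0.99 and −1.20 to −1.08, and that of PSAH1 to PSAH2 −1.13 to −0.96 and −1.15 to −1.0. For LHCB4.1 to LHCB4.2 the ratio in the DPI controls was 0.09 to 0.16 in the local leaf and 0.09 to 0.11 in the systemic leaf, below the water controls at 0.20 to 0.24 and 0.17 to 0.21. With light under DPI it was 0.22 to 0.23 in the local leaf. Among ratios chosen after their values were seen, that of LHCB1.4 to LHCB1.2 was −0.93 to −0.84 in the lit local leaf and −0.90 to −0.83 in the systemic leaf of the water plants with high light, and −0.74 to −0.53 in all other groups. That of LHCB2.3 to LHCB2.2 was −0.96 to −0.91 in the lit local leaf under water, −0.85 to −0.82 in the lit local leaf under DPI, and −0.76 to −0.65 in the other 6 groups.

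Over the 10 comparisons, 26 of the 40 tested members (65.0%) were called at least once, beside 68.5% of all tested genes, and 14 were not. The latter were LHCB1.2, LHCB2.1 and LHCB2.2 of LHCII, LHCB4.2 and LHCB6 of the monomeric antenna, PSAD1, PSAD2, PSAH1, PSAH2, PSAK and PSAO of photosystem I, and PSBQ2, PSBR and PSBW of photosystem II. Their log2 changes lay between −0.12 and 0.19.

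**Figure D5:**
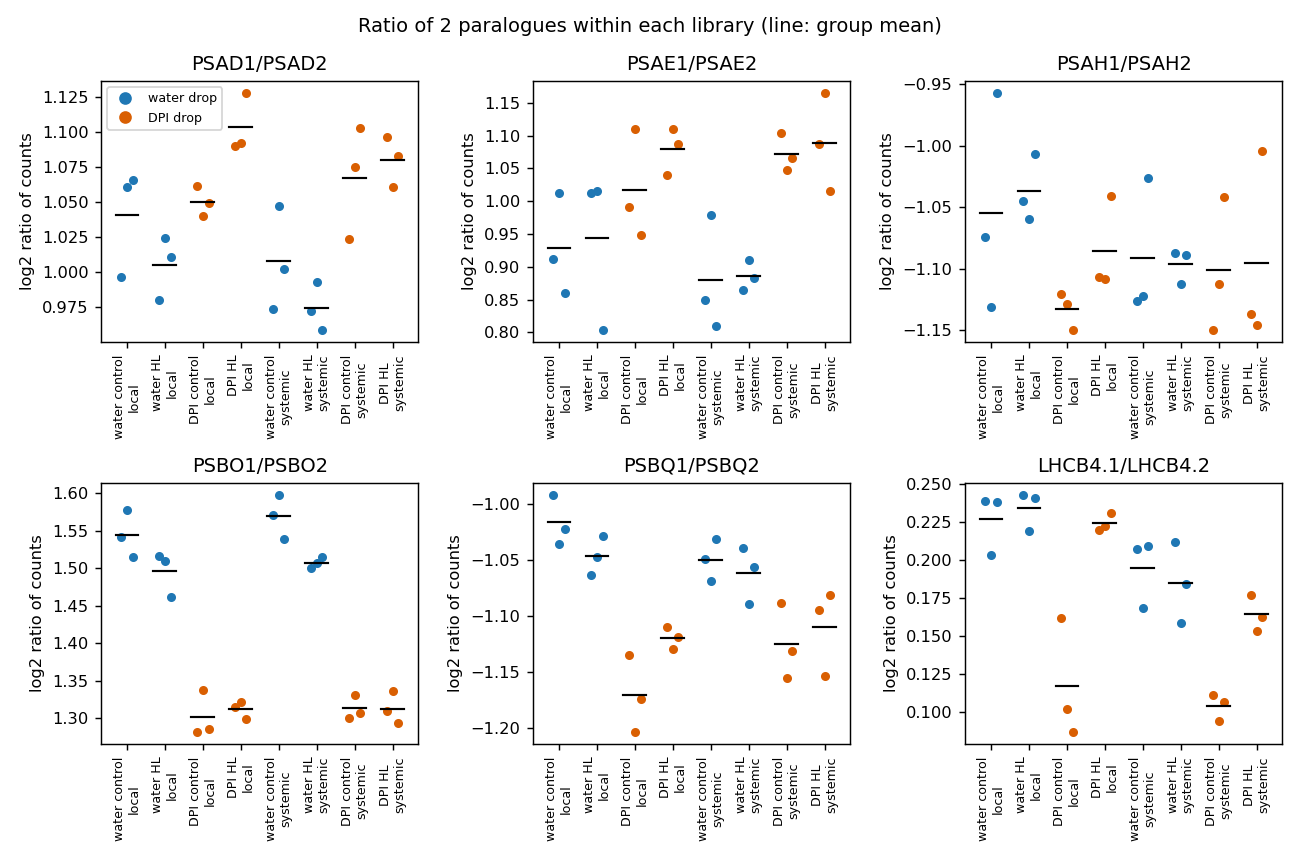
log2 ratio of the normalized counts of 2 paralogues in each library (points, with the group mean as a line), each panel with its own axis that does not start at 0. For PSBO1/PSBO2 the 12 water libraries lie at 1.46 to 1.60 and the 12 DPI libraries at 1.28 to 1.34, and the other 5 pairs drawn overlap between the drops.

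Other genes of the photosynthetic apparatus were described from lists drawn up with earlier results of these data known. Of 13 nuclear genes for electron transport and the ATP synthase, local light under water raised 2 and lowered 3, with FD1, a minor leaf ferredoxin, at 0.83 (± 0.04 SE, adjusted p 2.01e-20 in limma) and FD2, the main leaf ferredoxin, at −0.45 (± 0.05 SE, adjusted p 8.31e-10). Under DPI light raised 8 and lowered 1, and DPI alone raised 1 and lowered 7 in the local leaf and raised 2 and lowered 6 in the systemic leaf. Over all genes, local light raised 17.9% and lowered 14.4% under water, and 17.9% and 15.9% under DPI. DPI alone raised 21.5% and lowered 19.0% of all genes in the local leaf, and 20.7% and 18.8% in the systemic leaf. FD1 changed by −0.59 with DPI in the local leaf and by 0.68 with local light under DPI. Of 5 genes for the insertion of antenna proteins, local light lowered 3 under water, LTD (−0.53 ± 0.12 SE, adjusted p 0.000837), cpSRP43 (−0.46 ± 0.049 SE, adjusted p 5.84e-10) and cpSRP54 (−0.20 ± 0.039 SE, adjusted p 6.44e-05), and raised 0. cpSRP54 rose under DPI (0.10) and its response differed between the drops (0.31 ± 0.056 SE, adjusted p 4.92e-05).

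GLK1 and GLK2, transcription factors known to activate antenna and photosystem genes, were not called for local light under water (0.042 and −0.0026). Both fell with DPI, with changes of −0.42 (± 0.047 SE, adjusted p 9.62e-10 in limma) for GLK1 and −0.36 (± 0.035 SE, adjusted p 2.94e-11) for GLK2 in the local leaf, and of −0.42 and −0.36 in the systemic leaf. GLK1 stood at 4957, 4375 and 4494 normalized counts in the local water controls and at 3586, 3276 and 3465 with DPI. In the other light comparisons, local light under DPI raised 1 of the 2 GLK genes (0.11). In the systemic leaf, light lowered 1 of them under water and both under DPI (−0.21 and −0.16), beside 3.10% and 4.56% of all genes. Of 4 kinase and phosphatase genes of the antenna, DPI lowered 2 in the local leaf, STN7 (−0.14) and PBCP (−0.33), and 3 in the systemic leaf, and raised 0. Over all genes, DPI lowered 19.0% in the local and 18.8% in the systemic leaf. Of 6 further nuclear photosystem genes, DPI lowered 3 in the local leaf, with LHCB7 at −0.56 (± 0.06 SE, adjusted p 2.88e-10), and local light under water lowered 2, with PSBP2 at −0.47 (± 0.11 SE, adjusted p 0.000534), and raised LHCB7 (0.19). Of 8 plastid-encoded photosystem genes, local light under water raised 2, psbD (0.70 ± 0.27 SE, adjusted p 0.0449) and psaA (0.68 ± 0.27 SE, adjusted p 0.0478), and 0 were called in the other 9 comparisons. Their sum ran from 3832 to 22119.5 normalized counts over the libraries. In the lit local leaf under water the 3 sums were 7443, 8661 and 22119.5, against 6445 to 6912 in the local water controls. The highest sum was thus 1 library of the group in which the 2 genes were called.

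Markers of leaf cell types moved in the same comparisons, with 4 of 5 guard cell and 2 of 2 epidermis markers lower after local light with either drop. Over all genes, 14.4% were lower after local light under water and 15.9% under DPI. The summed level of 5 guard cell markers was 1293 to 1449 normalized counts in the local water controls and 969 to 1012 in high light, and 1206 to 1289 and 904 to 1006 under DPI. The 2 epidermis markers summed to 11941 to 12090 and 8461 to 8779 under water, and to 10044 to 10393 and 8871 to 9063 under DPI. The 4 mesophyll markers, the cells in which most of the members are expressed, summed to 549333 to 612495 in the local water controls and to 587119 to 610958 in high light, with 1 called higher and 1 lower. In the local DPI controls they summed to 500554 to 511914, and 3 of 4 were lower than with water (19.0% of all genes). In DPI with high light they summed to 534054 to 544876, and 3 of 4 were higher than in the DPI controls (17.9% of all genes). The 3 vascular markers summed to 2539 to 2667 in the local water controls, 3195 to 3284 in high light, 3192 to 3393 in the DPI controls and 3887 to 4052 in DPI with high light. Under water this sum held the phloem marker SUC2, called higher after light by a log2 change of 0.35, and the xylem marker IRX3, called lower at −0.87. In bulk leaves, fewer cells of a type and less RNA per cell cannot be told apart, and the part of these markers in the changes of the members was not tested.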

How the data were processed

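Total RNA was isolated from leaves of 24 samples, and libraries made from it with a stranded mRNA kit were sequenced. The authors aligned reads to TAIR10 with STAR 2.4.0.1 after FastQC 0.11.7 and deposited DESeq2 1.20.0 normalized counts (a signal: reads of a gene divided by the size factor of the library). Their counting program, its strand setting and its treatment of multiply mapped reads are not given in the sources used here. Whole reads were recovered for 100% of the values (tolerance 1e-06 reads), 13492454 to 26913744 per library, and edgeR on them called 3371 genes higher and 2677 lower for local light under water. The 18314 genes with at least 10 normalized counts in at least 3 libraries were tested with limma 3.58.1 (trend, R 4.3.3) on log2(normalized count + 1), with 8 group means in 1 fit, Benjamini-Hochberg adjustment over all of them within each of 10 comparisons and a threshold of 0.05 (two-sided). Fold changes are on this log2 scale, which understates changes of low genes.

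The alternatives were pseudocounts of 0.5 and 5, no filter, a mean of at least 50, TMM rescaling, quantile normalization, fits of only the groups compared, a replicate block, edgeR 4.0.16 and DESeq2 1.42.0 run on whole reads, and fits that omit a replicate in turn. The tests across genes were checked on simulated data. The members and gene lists were chosen with earlier results of these data known. Values in every library are given for members called, with 1 sign over the 3 same-numbered differences, that ranked among the 2 largest rises or falls of a comparison, and for LHCA5, LHCA6 and LHCB4.3. Transcript lengths, overlaps, promoters (250 bases) and coding sequences came from RefSeq TAIR10.1, where 32548 of 32833 IDs were found, and were matched by ID. Replicate numbers were not taken to pair the samples. Over all tested genes, deviations from group means correlated at −0.028 to 0.048 between same-numbered libraries of 1 leaf. They correlated at −0.0042 to 0.059 between same-numbered local and systemic leaves of 1 treatment, which may come from the same plants. Some members did share an order, with replicate 1 above replicate 2 in each group for LHCB1.2, LHCB3 and PSAK, and below it for PSAE1. How many members did so was not counted. Fits without a replicate block count such a shared shift as spread. No column of the files was left without a sample.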

Additional observations from a re-analysis of the deposited data

Results flagged for a closer look

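Of the 16 members whose local light response differed between the drops, 5 are among those described library by library. For these the response differed between the DPI and the water drop by a direct test of the difference (limma). It was more positive under DPI for LHCB1.4 by 0.36 (± 0.061 SE, adjusted p 1.47e-05), for LHCB1.3 by 0.32 (± 0.071 SE, adjusted p 0.000820), for PSBX by 0.24 (± 0.055 SE, adjusted p 0.00112), for PSBQ1 by 0.16 (± 0.053 SE, adjusted p 0.0238) and for PSAG by 0.16 (± 0.055 SE, adjusted p 0.0295) as log2 differences. The calls of PSBQ1 and PSAG were each lost in 5 of 12 fits that left out a library, with adjusted p up to 0.122 and 0.102, and PSAG reached 0.441 under quantile normalization. Systemically, the response of LHCB1.4 differed by 0.32 (± 0.061 SE, adjusted p 0.000346) in the same direction. Between the leaves of the water plants, the response was more positive in the systemic leaf for LHCB2.3 by 0.29 (± 0.056 SE, adjusted p 0.000148) and for PSBX by 0.20 (± 0.055 SE, adjusted p 0.00600).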

How the results depend on the processing

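The 29 named results were refitted 509 times, and 463 fits kept the direction and the call, 41 lost the call and 5 reversed. All reversals came from quantile normalization. Under it, local light under DPI gave −0.065 for LHCA5, −0.057 for LHCA6, −0.11 for PSAG and −0.0091 for PSBQ1, and DPI in the local leaf gave 0.045 for PSBQ1. The cause was not tested. This scaling moved the median of all genes by −0.077 to 0.047.

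Quantile normalization called 28 members for local light under water, 3 for systemic light under either drop and 16 for DPI in the systemic leaf. It called 6 and 4 for the drop by light differences in the local and the systemic leaf, and 12 for the leaf by light difference. Of the 18314 tested genes, it called 1164 higher and 943 lower for systemic light under water, and 1181 and 1142 under DPI. For drop by light it called 1767 more positive and 1849 more negative in the local leaf, and 458 and 749 in the systemic leaf. Fits of only the groups compared called 7 for local light under water and 14 under DPI. With no filter, 6 drop by light differences were called in the local leaf. edgeR called 2 members for systemic light under water and 5 for leaf by light, and DESeq2 called 2 for the former.

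Same replicate numbers were not taken to pair the samples, although some members, such as LHCB1.2, kept 1 order of replicates 1 and 2 in every group. With the replicate block, 20 members were called for local light and 3 for systemic light under water, 18 for local light under DPI, 19 and 11 for DPI in the local and the systemic leaf, 26 and 2 for drop by light in these leaves, 5 for leaf by light and 1 between the control leaves.

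Leaving out 1 library gave 7 to 21 members for local light and 1 to 2 for systemic light under water, 4 to 11 for local light under DPI, 9 to 17 and 5 to 9 for DPI in the local and the systemic leaf, 7 to 25 and 1 to 2 for drop by light, and 2 to 5 for leaf by light. It gave 0 for systemic light under DPI and between the control leaves. The 3 replicates of a group and their spread limit the members of small change.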
